A study of Mus musculus with 46 samples.

Results

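The genes described here encode collagens, laminin chains, matrix metalloproteinases, the ADAMTS family of secreted proteases with their ADAMTS-like relatives, and the tissue inhibitors of metalloproteinases. They were taken by symbol. An autosomal gene was a member when its mouse symbol began with Col, Lam, Adamts, Mmp or Timp in the way these families are numbered and its count, summed over both alleles, averaged 20 or more at any of 3 ages. Of 88 symbols of that form among the 15499 genes of the tables, 72 were members, 13 stayed under the minimum and 3 were X-linked (Col4a5, Col4a6 and Timp1). The members nearest the minimum were Mmp11, with a highest mean of 25.5 counts, and Col1a1 with 25.64, and the genes nearest below it were Col6a6 with 19.5 and Col28a1 with 11.79. The minimum was met at every age by 55 members. One symbol, Col4a3bp, belongs to the gene of a ceramide transfer protein and not to a collagen, and it is kept apart in what follows.

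The RNA came from the dorsal raphe nucleus, the main serotonin-producing cell group of the brainstem, and gave 46 libraries from female mice. All were F1 hybrids of the strains C57 and CAST, bred in both directions of the cross, which are named F1i and F1r. There were 7 F1i and 7 F1r libraries at postnatal day 5 (P5), 7 and 7 at postnatal day 15 (P15), and 9 and 9 in adults. The labels give no treatment and no age in days for the adults, and do not give the strain of the dams of F1i. Every gene has a count for its C57 copy and another for its CAST copy in each library.

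Basement membranes are thin sheets of matrix that wrap blood vessels and cover the brain surface. They are built on a network of type IV collagen and a network of laminins, each laminin being a trimer of an alpha, a beta and a gamma chain. Metalloproteinases and ADAMTS proteases cleave matrix proteins as tissue grows and is remodelled, and the tissue inhibitors bind and block many of them. In brain these genes are active in endothelial cells, pericytes, meningeal fibroblasts and glia, and several serve neurons.

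Library totals were 5100560 to 10319139 counts at P5, 3692778 to 8032987 at P15 and 4912934 to 13085952 in adults, so the P15 values rest on the fewest counts. The members together took 0.353% to 0.376% of all counts at P5, 0.189% to 0.27% at P15 and 0.264% to 0.295% in adults. The tissue label was checked with serotonergic markers. Tph2, the gene of the enzyme that makes serotonin in neurons, had a median of 105 CPM at P5, a unit in which all libraries are scaled to a common total,, 548 at P15 and 525 in adults, and no library was at 0. Levels below are CPM over both alleles, given as the lowest, median and highest library of the 14 at P5, the 14 at P15 and the 18 adults. They count only reads that were assigned to an allele, so they are compared between ages and not between genes.

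Most members fell after P5. Between P5 and P15, 56 of the 72 members fell, 10 rose and 6 did not pass an adjusted p of 0.05 (edgeR quasi-likelihood test). Among all 13637 genes tested, 40.9% fell and 42.5% rose. The median member fell by 0.80 on the log2 scale, beside a median change of 0.02 over all genes. Among the 68 members with a mean of 20 counts or more over all libraries, 53 fell and 9 rose. A member that met the minimum only at P5 was favoured to fall by the way it was chosen. Among the 55 members that met it at every age, 44 fell and 7 rose. Every P15 library lay below every P5 library for 35 members (48.6%), which was the case for 21.3% of all genes. The reverse held for 3 members, Adamts6, Adamtsl4 and Timp4, and for 19.8% of all genes. In bulk tissue, fewer cells of a type and less RNA per cell cannot be told apart, and neither can age and any batch that went with it.

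Between P15 and adulthood, 42 members fell, 19 rose and 11 did not pass, where 37.7% of all genes fell and 37% rose. The median member fell by 0.28, beside -0.01 over all genes. A member over the count minimum at P15 but not in adults was favoured to fall by the way it was chosen. One over it in adults but not at P15 was favoured to rise. Among the 55 members that met it at every age, 34 fell and 14 rose. Every adult library lay below every P15 library for 7 members, against 5.67% of all genes, and above for 6 members, against 6.5% of all genes. Those 6 were Adamts1, Adamtsl4, Adamtsl5, Timp2, Timp3 and Col4a3bp. Both steps use the same P15 libraries, so a high or low P15 value enters both.

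**Figure D1:**
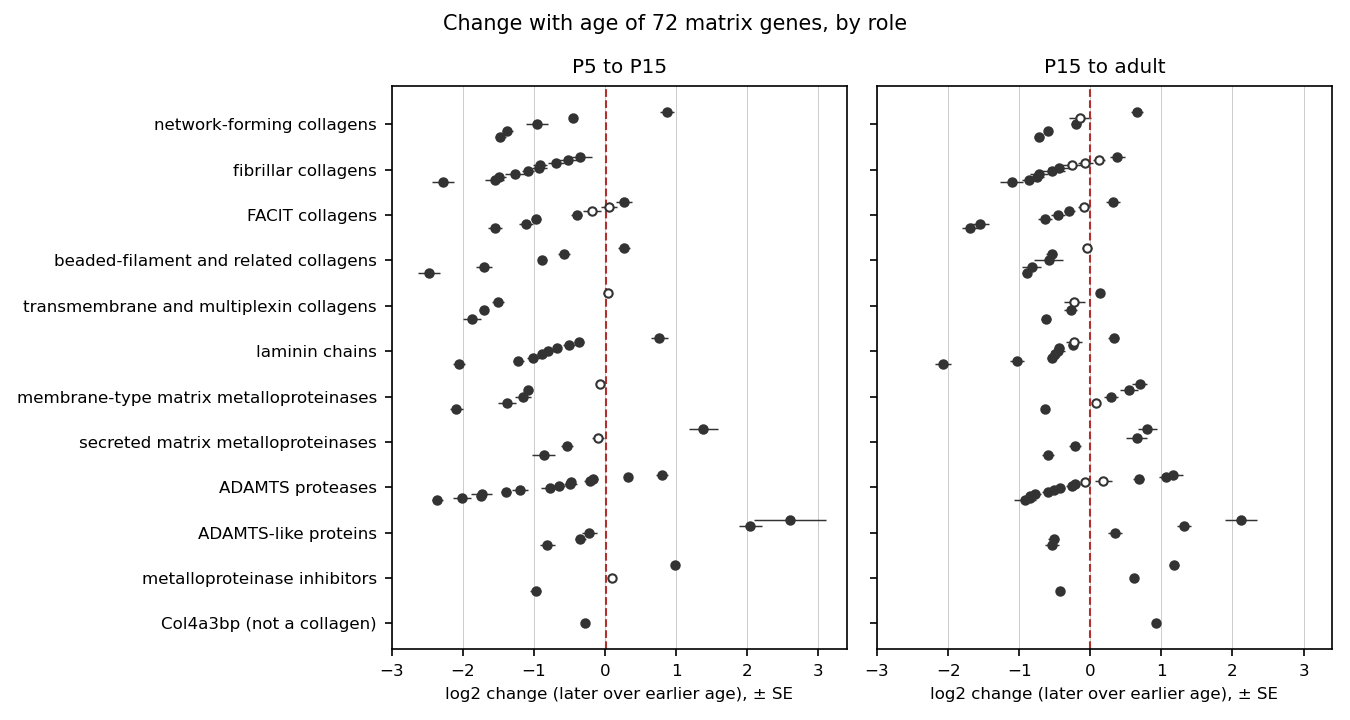
Log2 change of each of 72 members from P5 to P15 (left) and from P15 to adult (right), arranged by role; a point is an edgeR estimate, its bar is ± 1 SE, filled points passed an adjusted p of 0.05 and the dashed line is the median of all genes. All 10 fibrillar collagens lie left of the line in the left panel, and the ADAMTS-like proteins reach farthest to the right in both panels. Members that met the count minimum only at P5, such as Col5a1 and Col26a1, were favoured to fall by the way they were chosen. Those that met it only in adults were favoured to rise, such as the ADAMTS-like gene Adamtsl5, with a mean of 0.64 counts at P5.

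Col4a1 and Col4a2 encode the collagen chains found in nearly all basement membranes. Col4a1 ran from 212 through a median of 224 to 243 CPM at P5, from 63.1 through 78.9 to 139 at P15, and from 44.4 through 50.5 to 71.1 in adults. Col4a2 ran from 295 through 318 to 333 at P5, from 80.1 through 108 to 176 at P15, and from 80.7 through 99.4 to 126 in adults. For both genes the P5 libraries stood clear above all others, and the P15 and adult libraries overlapped. Col4a1 fell by 1.37 ± 0.08 (log2 ± SE, adjusted p = 4.4e-22) from P5 to P15, and Col4a2 fell by 1.47 ± 0.08 (adjusted p = 6.5e-23). From P15 to adulthood Col4a1 fell by 0.72 ± 0.07 (adjusted p = 1.8e-12). Col4a2 fell by 0.20 ± 0.07 (adjusted p = 0.012), and this second change did not pass when adult libraries with the same first label number were summed (adjusted p = 0.061).

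These genes lie head to head on chromosome 8. In the RefSeq promoter table (build GRCm38.p6, which is not the mm9 build that the submitters name, so no coordinate of the files was used) the stretch from the annotated first base of one to that of the other is 22 bases long, both ends counted, with Col4a1 on the minus strand and Col4a2 on the plus strand. The stretch is shown because both genes moved together across the ages. It is chr8:11312801-11312830 on the plus strand, and capitals mark the bases from the first base of Col4a2 to the first base of Col4a1.
Col4a1 and Col4a2 starts: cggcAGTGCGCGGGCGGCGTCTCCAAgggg
The annotated transcripts overlap in these 22 bases on opposite strands, and whether the counts used strand is not given in the sources used here.

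The other network-forming collagens split. Col4a4, part of a specialised type IV network, and Col8a1, a short-chain collagen of vessel walls, fell between P5 and P15 by 0.95 ± 0.15 and 0.45 ± 0.06. Col8a2, the partner chain of Col8a1, ran from 11.2 through 14.2 to 17.3 CPM at P5, from 16.8 through 25.1 to 38.2 at P15 and from 31.3 through 39.9 to 57 in adults. It rose at both steps, by 0.88 ± 0.10 (adjusted p = 4.7e-11) and by 0.66 ± 0.09 (adjusted p = 1.8e-09), and libraries of neighbouring ages overlapped while no adult library reached down to the P5 range. Col8a1 fell again from P15 to adulthood, by 0.60 ± 0.06, so the chains of type VIII collagen moved in opposite directions at both steps.

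Of the 9 laminin chains, 8 fell and 1 rose between P5 and P15, with a median change of -0.79. Lamc1, the gamma chain of most laminins, ran from 144 through 151 to 163 CPM at P5, from 60.9 through 78.1 to 122 at P15 and from 49.5 through 60.3 to 72.7 in adults. It fell by 0.88 ± 0.07 (adjusted p = 1.4e-15) and then by 0.45 ± 0.07 (adjusted p = 1.7e-07), and no P15 library reached the P5 range.

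Lama4, the alpha chain typical of vessel walls, fell at both steps. It ran from 11.9 through 15.4 to 17.8 CPM at P5, from 5.24 through 7.61 to 12.9 at P15 and from 1.09 through 1.98 to 2.38 in adults. The first step was a fall by 1.01 ± 0.09 (adjusted p = 6.8e-14), with overlapping libraries, and the second a fall by 2.06 ± 0.11 (adjusted p = 8.7e-22), with none. Lama2, an alpha chain of muscle, nerve and perivascular basement membranes, was the laminin chain that rose, by 0.77 ± 0.12 from P5 to P15 (adjusted p = 8.4e-08). It then fell by 0.46 ± 0.10 (adjusted p = 8.5e-05). Its medians were 3.97, 6.51 and 4.87 CPM, and the ranges of all ages overlapped. Lamb2, a beta chain of mature vessels and synapses, fell by 0.50 ± 0.08 and then rose by 0.33 ± 0.08.

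All 10 fibrillar collagens fell from P5 to P15. These are the chains that assemble into banded fibrils, with types I and V typical of connective tissue and types II and XI typical of cartilage. Col5a1, Col2a1 and Col24a1 met the count minimum only at P5, so their choice as members favoured a fall. Col3a1, another fibrillar gene, stayed under the minimum, with means of 9.14 counts at P5 and 8.29 at P15. Col11a2 ran from 56.1 through 66.3 to 77.1 CPM at P5, from 16.1 through 22.5 to 35.2 at P15 and from 8.62 through 12.7 to 18.5 in adults. It fell by 1.49 ± 0.09 (adjusted p = 1.5e-20) and then by 0.86 ± 0.09 (adjusted p = 1.3e-11). Its partner Col11a1 fell by 0.91 ± 0.10 and by 0.75 ± 0.10. The steepest fall was that of Col5a1, a chain that helps set fibril width, from a median of 6.76 to 1.49 CPM (fell by 2.28 ± 0.15, adjusted p = 4.1e-19), with no overlap between P5 and P15. The genes of the main connective tissue collagen, Col1a1 and Col1a2, were at medians of 3.80 and 9.13 CPM at P5 and fell by 0.36 ± 0.17 and 0.53 ± 0.13. From P15 to adulthood 6 fibrillar genes fell, Col5a3 rose by 0.38 ± 0.10, and 3 did not pass.

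The FACIT collagens, which sit on the surface of fibrils, were mixed. Between P5 and P15, 4 of 7 fell, Col19a1 rose by 0.27 ± 0.11 and 2 did not pass. Col16a1 ran from 48.3 through 53.4 to 62.6 CPM at P5, from 12.5 through 18.7 to 27.9 at P15 and from 15.6 through 21.4 to 34.7 in adults, a fall by 1.55 ± 0.10 (adjusted p = 8.7e-20) followed by a rise by 0.32 ± 0.10 (adjusted p = 0.0026). The P5 libraries of Col16a1 lay above all others. Col9a1 and Col9a3, chains of type IX collagen, did not pass at first, with changes of 0.05 ± 0.11 and -0.18 ± 0.12. They then fell by 1.69 ± 0.12 and 1.55 ± 0.13 to medians of 1.30 and 2.21 CPM in adults. Col9a2, the remaining chain, fell at both steps, by 1.11 ± 0.10 and 0.64 ± 0.10.

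Type VI collagen forms beaded filaments around cells. Col6a1, Col6a2 and Col6a3, which make up its standard trimer, fell by 0.57 ± 0.08, 1.71 ± 0.11 and 0.88 ± 0.07 from P5 to P15 and by 0.54 ± 0.08, 0.82 ± 0.13 and 0.89 ± 0.07 from P15 to adulthood. Col6a5, an alternative chain, ran from 14.2 through 16.0 to 20.7 CPM at P5, from 16.5 through 19.4 to 26.5 at P15 and from 12.6 through 18.6 to 25.7 in adults, rose by 0.27 ± 0.08 (adjusted p = 0.0031) and then did not pass (-0.04 ± 0.07). Col26a1 had the largest fall of any member at the first step, 5.56-fold, from a median of 7.27 to 1.31 CPM (fell by 2.48 ± 0.16, adjusted p = 8.5e-20). It met the count minimum only at P5, so its choice as a member favoured a fall. Of the transmembrane and multiplexin collagens, Col23a1, Col18a1 and Col15a1 fell between P5 and P15 by 1.71 ± 0.07, 1.5 ± 0.09 and 1.87 ± 0.13. Col18a1 carries the endostatin fragment in its protein. Col25a1, a transmembrane collagen made by neurons, ran from 204 through 229 to 253 CPM at P5, from 178 through 229 to 272 at P15 and from 200 through 251 to 348 in adults. Its first change did not pass (0.04 ± 0.06), and it rose by 0.14 ± 0.06 at the second step (adjusted p = 0.029), which did not pass under upper quartile scaling (adjusted p = 0.085).

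Among the membrane-type metalloproteinases, which are anchored in the cell surface, 4 of 5 fell between P5 and P15. Mmp14, the collagenase that also activates Mmp2, ran from 40.5 through 45.0 to 48.3 CPM at P5, from 6.17 through 9.42 to 16.4 at P15 and from 8.12 through 12.4 to 16.0 in adults. It fell 4.26-fold (by 2.09 ± 0.09 on the log2 scale, adjusted p = 5.1e-26), with every P5 library above every later one, and then rose by 0.29 ± 0.10 (adjusted p = 0.0051). Mmp17, a glycolipid-anchored member, ran from 193 through 204 to 220 at P5, from 52.0 through 95.0 to 156 at P15 and from 105 through 142 to 180 in adults. It fell by 1.16 ± 0.12 (adjusted p = 5.4e-13) and rose by 0.69 ± 0.11 (adjusted p = 1.7e-07) and its P15 libraries were the most widely spread. Mmp15 moved alike, with a fall by 1.38 ± 0.13 and a rise by 0.54 ± 0.12. Mmp16 did not pass at first (-0.07 ± 0.05) and fell by 0.63 ± 0.05 later. Mmp24, which is made mainly in the nervous system, fell by 1.08 ± 0.06 and then did not pass.

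Mmp2, Mmp11, Mmp19 and Mmp23 were grouped here as secreted, a grouping by list and not by a test of where each protein lies. Of these 4, 2 fell, 1 rose and 1 did not pass from P5 to P15, and 2 rose and 2 fell from P15 to adulthood. Mmp2, a gelatinase, had medians of 8.71, 7.92 and 5.12 CPM, did not pass between P5 and P15 (-0.10 ± 0.09), and fell by 0.59 ± 0.08 in adults (adjusted p = 1.7e-08). Mmp19 fell by 0.53 ± 0.09 at the first step. Mmp23 rose at both steps, by 1.38 ± 0.20 and 0.80 ± 0.14, from a median of 0.787 CPM to 3.98 CPM. Mmp11 and Mmp23 met the count minimum only in adults, so their choice as members favoured a rise to adulthood. Mmp9, the other gelatinase, stayed under the count minimum at every age, with a highest mean of 7.86 counts.

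Of 14 ADAMTS proteases, 12 fell and 2 rose between P5 and P15. Adamts17 ran from 28.0 through 32.9 to 38.8 CPM at P5, from 4.76 through 6.23 to 8.70 at P15 and from 3.08 through 4.25 to 5.45 in adults, and fell 5.12-fold at the first step (by 2.36 ± 0.07, adjusted p = 1.4e-32). Adamts10, a close relative that binds fibrillin, ran from 65.7 through 75.8 to 84.2 at P5, from 13.8 through 20.9 to 29.4 at P15 and from 13.5 through 16.9 to 20 in adults, a fall by 1.74 ± 0.07 (adjusted p = 7.7e-29). In both genes the P5 libraries were clear of the rest. The proteases that rose were Adamts20, by 0.33 ± 0.04, and Adamts6, by 0.80 ± 0.09. Adamts2, which trims procollagen, fell by 0.78 ± 0.12 and then rose by 1.07 ± 0.10, and its medians were 20.6, 10.5 and 24.6 CPM. Adamts1 and Adamts9, which cleave proteoglycans such as versican, parted in adults, with a rise by 0.68 ± 0.08 in Adamts1 and a fall by 0.84 ± 0.09 in Adamts9. Adamts5, the main aggrecan-cleaving protease, fell by 0.16 ± 0.07 and 0.51 ± 0.06.

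ADAMTS-like proteins share the binding domains of this family but lack the protease. Adamtsl4, which binds fibrillin microfibrils, ran from 0.93 through 1.82 to 3.42 CPM at P5, from 4.41 through 7.89 to 10.3 at P15 and from 13 through 20.2 to 27.1 in adults. No libraries of different ages overlapped. It rose by 2.04 ± 0.16 (adjusted p = 2.0e-16) and by 1.32 ± 0.10 (adjusted p = 5.8e-16), where 1 P5 library held as few as 6 counts. Adamtsl5 also rose at both steps, to a median of 2.86 CPM in adults from one of 0.0772 CPM at P5, where it had a mean of 0.64 counts per library. Adamtsl5 met the count minimum only in adults, so its choice as a member favoured a rise. Adamtsl1 fell by 0.81 ± 0.10 and rose by 0.35 ± 0.10, and Adamtsl2 and Adamtsl3 fell at both steps. The first fall of Adamtsl3 (by 0.22 ± 0.10, adjusted p = 0.046) did not pass under 3 of the other settings, with adjusted p of 0.056 to 0.12.

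The inhibitors followed courses of their own. Timp2, which blocks metalloproteinases and also takes part in the activation of Mmp2 by Mmp14, ran from 727 through 778 to 808 CPM at P5, from 284 through 392 to 574 at P15 and from 814 through 883 to 997 in adults. It fell by 0.97 ± 0.08 (adjusted p = 2.6e-16) and rose by 1.18 ± 0.07 (adjusted p = 2.3e-19), and no P15 library reached the range of either other age. Timp3, the matrix-bound inhibitor that also blocks ADAMTS proteases, ran from 176 through 212 to 241 at P5, from 195 through 229 to 270 at P15 and from 298 through 350 to 422 in adults. Its first change did not pass (0.10 ± 0.05, adjusted p = 0.077), and its adult libraries stood above all others after a rise by 0.61 ± 0.05 (adjusted p = 5.6e-15). Timp4 ran from 22.2 through 26.2 to 29.9 at P5, from 42.6 through 50.1 to 58.9 at P15 and from 31.4 through 37.4 to 43.6 in adults. It rose by 0.99 ± 0.05 (adjusted p = 3.4e-23), with no overlap, and fell by 0.43 ± 0.05 (adjusted p = 9.6e-12), with the highest adult libraries in the P15 range. The P15 age was thus the lowest for Timp2 and the highest for Timp4. Col4a3bp, outside these families, fell by 0.28 ± 0.06 and rose by 0.93 ± 0.05.

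**Figure D2:**
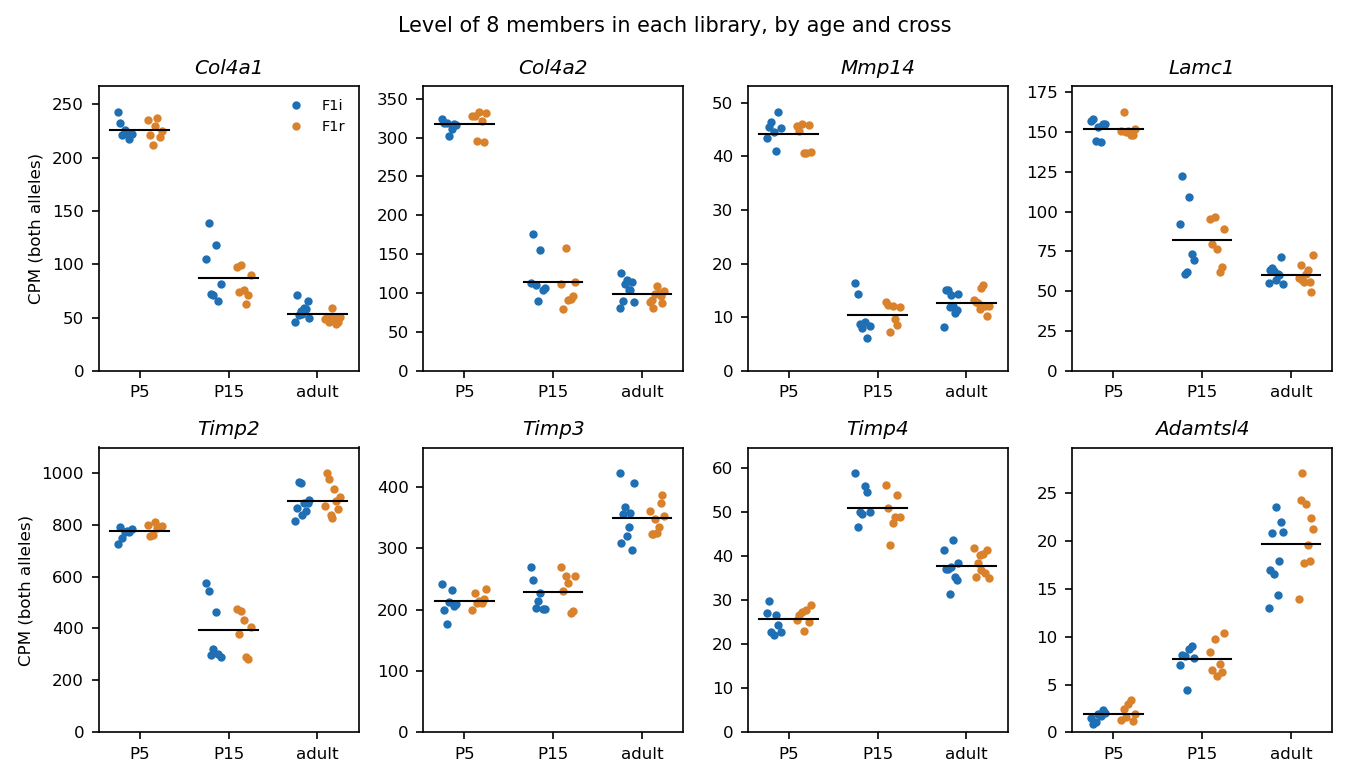
Level of 8 members in CPM (vertical axes start at 0 and differ between panels) in each library at P5, P15 and adulthood; a point is a library, blue for F1i and orange for F1r, and the line is the mean of an age. Col4a1, Col4a2, Mmp14 and Lamc1 are highest at P5, Timp2 dips to a highest P15 value of 574, Timp4 peaks at P15, and Timp3 and Adamtsl4 are highest in adults.

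Mmp14, Timp2 and Timp4 are shown with the 250 bases before their annotated starts because their courses were opposed: Mmp14 and Timp2 fell at the first step where Timp4 rose. The sequences are from RefSeq (GRCm38.p6), read in the direction of each gene, at chr14:54431348-54431597 (plus strand) for Mmp14, chr11:118355412-118355661 (minus strand) for Timp2 and chr6:115252206-115252455 (minus strand) for Timp4. Capitals mark matches to 3 motifs, and both strands were searched for each. The TATA box was searched as TATAAA. The CCAAT box was searched as CCAAT, and the GC box of the Sp1 family was searched as GGGCGG. In Mmp14 the last CCAAT match overlaps a GGGCGG match.
Mmp14: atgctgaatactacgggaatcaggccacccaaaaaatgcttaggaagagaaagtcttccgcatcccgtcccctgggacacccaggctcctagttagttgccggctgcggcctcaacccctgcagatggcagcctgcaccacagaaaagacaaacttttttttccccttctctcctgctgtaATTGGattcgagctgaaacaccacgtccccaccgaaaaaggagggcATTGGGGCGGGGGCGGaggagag
Timp2: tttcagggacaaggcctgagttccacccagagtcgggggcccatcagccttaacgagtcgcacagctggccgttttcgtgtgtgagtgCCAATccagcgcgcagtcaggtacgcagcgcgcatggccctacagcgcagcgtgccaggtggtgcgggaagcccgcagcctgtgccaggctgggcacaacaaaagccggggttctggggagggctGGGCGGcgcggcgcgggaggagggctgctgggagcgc
Timp4: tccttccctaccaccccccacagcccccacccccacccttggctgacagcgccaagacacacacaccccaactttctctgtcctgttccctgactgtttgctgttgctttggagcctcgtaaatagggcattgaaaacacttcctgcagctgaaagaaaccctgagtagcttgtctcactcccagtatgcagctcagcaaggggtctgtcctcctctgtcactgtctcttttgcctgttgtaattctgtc
Mmp14 holds 2 CCAAT and 2 GGGCGG matches, Timp2 holds 1 of each, and these letters are not in the Timp4 window. The windows have a GC content of 55.2%, 68% and 53.6% and hold 10, 21 and 2 CG pairs. The table holds a window for 47 of the 72 members. In these, GGGCGG was found for 34 members (72.3%), CCAAT for 14 (29.8%) and TATAAA for 3 (6.38%), where 35.4%, 37.5% and 14.3% of 27025 genes with a window hold them. Those 27025 genes were not limited to the 15499 genes counted here or to genes that met the count minimum. The shares of members and of all genes are therefore not like for like. A match describes the letters only.

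Other genes of matrix assembly were counted from lists, to be read beside the shares of all genes that rose and fell at each step. Of 21 genes of collagen-making enzymes and chaperones, 12 fell and 6 rose from P5 to P15 (median -0.39), and 12 fell and 5 rose from P15 to adulthood (median -0.17). Sparc, which binds collagen as it leaves the cell, rose by 1.76 ± 0.04 from a median of 748 to 2440 CPM, against the direction of most collagens. P4ha1, a prolyl hydroxylase that stabilises the collagen helix, rose by 1.07 ± 0.05. Of 20 basement membrane partners and matrix receptors, 11 fell and 4 rose, and then 9 fell and 8 rose. Agrn, a heparan sulfate proteoglycan of basement membranes and synapses, fell by 1.76 ± 0.06 from a median of 1230 to 336 CPM. Nid1, which links the laminin and collagen IV networks, fell by 1.18 ± 0.06 and then by 2.18 ± 0.06, from a median of 219 through 94.6 to 21.3 CPM. Of 9 lecticans and link proteins, which build the matrix between brain cells, 4 fell and 3 rose, and then 5 fell and 3 rose. Of 12 other protease inhibitors and activators, 3 fell and 2 rose, and then 6 fell and 4 rose.

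Markers of the vascular cell types that make many of these genes are given beside the members' sum at each age. All 72 members summed to 3554 to 3720 CPM at P5, 1795 to 2711 at P15 and 2650 to 3031 in adults. Every P15 library lay below every P5 library, and the P15 and adult ranges overlapped. Timp2, Timp3 and Col4a3bp, members that rose from P15 to adulthood, were left out of a second sum after their values had been seen. Without them the members summed to 2447 to 2574 CPM at P5, 1227 to 1798 at P15 and 1231 to 1482 in adults, so the place of the adults relative to P15 depended on these 3 genes. Endothelial markers (10 genes) summed to 274.4 to 291 CPM at P5, 304.5 to 464.6 at P15 and 176.1 to 224.3 in adults. From P5 to P15, 6 of these rose and 4 fell, and from P15 to adulthood 8 fell and 1 rose. Mural markers (10 genes) summed to 295.1 to 341.1, 284.2 to 437 and 130.5 to 162.4 CPM, with 5 up and 4 down and then 1 up and 6 down. Fibroblast and meningeal markers (9 genes) summed to 20.58 to 29.36, 49.13 to 86.88 and 34.24 to 55 CPM, with 7 up and 1 down and then 1 up and 5 down. So the sums were higher at P15 than at P5 for endothelial and fibroblast markers without overlap, and overlapped for mural markers. Both sums of the members were lower at P15 than at P5. Few genes set the marker sums. Slco1a4 went from a median of 21.9 to 123 CPM and Slc2a1 from 38.2 to 97.1. Cdh5 went from 42.9 to 10.9, Kdr from 47.3 to 27.9, Flt1 from 40.6 to 21.8 and Cldn5 from 21.3 to 14.3. Among fibroblast and meningeal markers, Dcn went from 5.7 to 23.2 and Mgp from 0.928 to 11.6. The marker sums are thus no measure of cell numbers. The part of cell numbers in the members' changes was not tested.

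**Figure D3:**
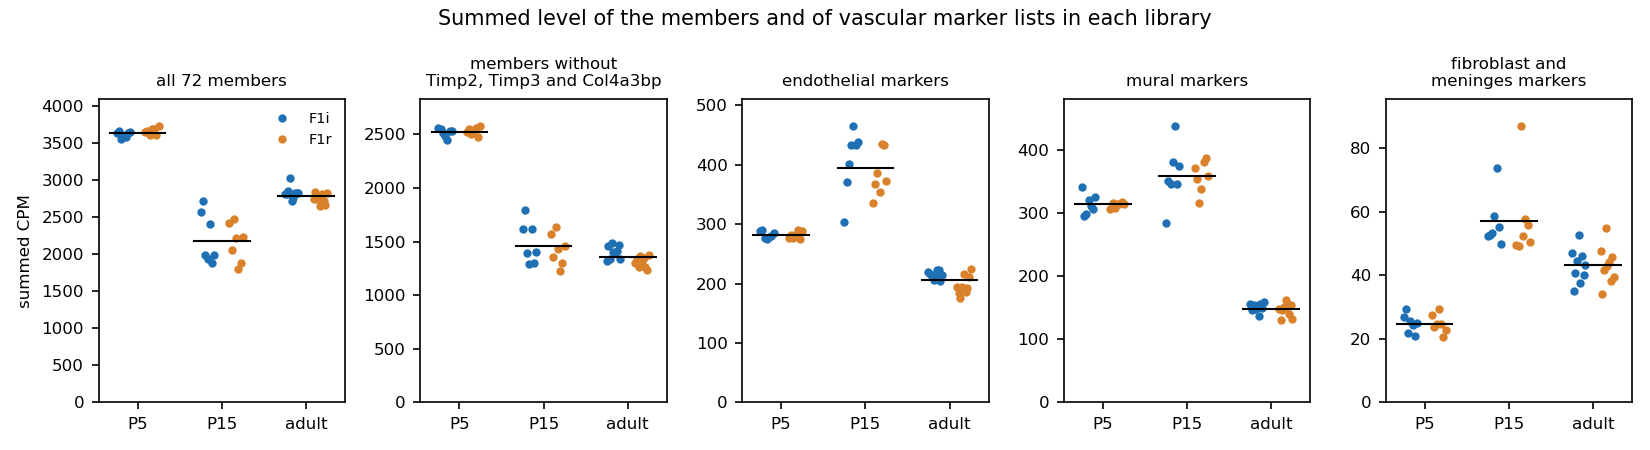
Summed CPM of all 72 members (left), of 69 members (without Timp2, Timp3 and Col4a3bp) and of endothelial, mural and fibroblast marker lists in each library at P5, P15 and adulthood; a point is a library, blue for F1i and orange for F1r, and the line is the mean of an age. The members' sum is highest at P5 (3554 to 3720 CPM for all members, 2447 to 2574 CPM without the 3). The endothelial sum is highest at P15 (304.5 to 464.6 CPM), though 4 of its 10 genes fell from P5 to P15.

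Each F1 animal carries a C57 and a CAST copy of every gene in the same cells, so a difference between the counts of the copies compares the strains' alleles within an animal. The strain effect is the log2 ratio of CAST over C57 counts averaged over the crosses. At P5 the CAST copy was higher for 24 of 68 members tested and the C57 copy for 18, where 31.5% and 26.9% of all genes were called. At P15 these numbers were 22 and 18 of 59 (31.1% and 27.3% of all genes), and in adults 26 and 18 of 64 (35.9% and 31.9%). The shares of members called lay near those of all genes. The median size of the strain effect, without its sign, over the members was 0.22, 0.31 and 0.30 at P5, P15 and in adults, beside 0.15, 0.16 and 0.16 over all genes. Over the 55 members that met the count minimum at every age it was 0.19, 0.28 and 0.27. Members and all genes were not matched for counts, which also bear on this size. Of 55 members tested at every age, 12 were called with CAST higher at all 3 ages and 10 with C57 higher, together 22 of 55, where 39.1% of all such genes were called in 1 direction throughout. How reads were assigned to an allele is not given in the sources used here, and its part in these ratios was not tested.

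Lama3, the alpha chain of epithelial laminin, had the largest called CAST effect among members of high count. CAST took 70.3%, 76.7% and 80.7% of its counts in the lowest, median and highest P5 library, 77.5%, 81.5% and 88.1% at P15, and 78.7%, 83.1% and 87.4% in adults. The strain effect was 1.71 ± 0.05 at P5 (adjusted p = 2.7e-33), 2.17 ± 0.06 at P15 (adjusted p = 1.3e-32) and 2.34 ± 0.04 in adults (adjusted p = 1.0e-32). Every one of the 46 libraries was on the CAST side. The C57 copy of Lama3 averaged 12.5 ± 2.11 CPM at P5 (SD) and 5.73 ± 0.775 in adults, and the CAST copy 40.7 ± 4.4 and 29.0 ± 4.66. Adamts20 was the reverse. Its CAST share ran from 27.9% through 33.2% to 38.4% at P5, from 22.5% through 29.1% to 34.8% at P15 and from 21.7% through 27.6% to 33.7% in adults, all below 50%. Its strain effect was -1.01 ± 0.05, -1.33 ± 0.05 and -1.38 ± 0.04, with an adjusted p of 4.7e-26 in adults.

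Col6a1 and Col6a2 are neighbours whose chains join in 1 trimer, and their alleles leaned to opposite sides. CAST took 54.3% to 62.3% of Col6a1 counts at P5, 52.5% to 70% at P15 and 53.9% to 66.7% in adults, above 50% in every library. The strain effect was 0.49 ± 0.05, 0.63 ± 0.07 and 0.53 ± 0.05. CAST took 34% to 48.4% of Col6a2 counts at P5, with every library below 50%, and medians of 35.4% at P15 and 31.9% in adults. The strain effect of Col6a2 was -0.41 ± 0.09, -0.91 ± 0.17 and -0.92 ± 0.15, on medians of 71, 19 and 20 counts per library. Col4a1 and Col4a2, in contrast, leaned the same way at P5, with CAST effects of 0.19 ± 0.02 and 0.34 ± 0.02, and CAST shares above 50% in all 14 libraries for each gene.

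Other members of high count kept their side at every age. Col5a2, a fibrillar chain, had CAST effects of 0.39 ± 0.06, 0.67 ± 0.09 and 0.54 ± 0.06, and no library fell below 50%. Lamb1, the common beta chain, had 0.26 ± 0.04, 0.55 ± 0.06 and 0.29 ± 0.05. Adamts15, an aggrecan-cleaving protease, had 0.27 ± 0.05, 0.50 ± 0.10 and 0.53 ± 0.07. On the C57 side, Mmp17 had -0.34 ± 0.02, -0.57 ± 0.04 and -0.63 ± 0.02, with CAST shares of 41.1% to 46.1%, 37.8% to 44.7% and 36.8% to 41.1%. Timp3 had -0.20 ± 0.02, -0.37 ± 0.03 and -0.41 ± 0.01, and Col23a1 had -0.79 ± 0.05, -0.31 ± 0.08 and -0.36 ± 0.07. All libraries of Mmp17 and Timp3 were below 50%. Lama2, of lower count, leaned to C57 with -1.07 ± 0.16, -1.06 ± 0.14 and -1.58 ± 0.10, so the alpha chains Lama2 and Lama3 stood on opposite sides.

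**Figure D4:**
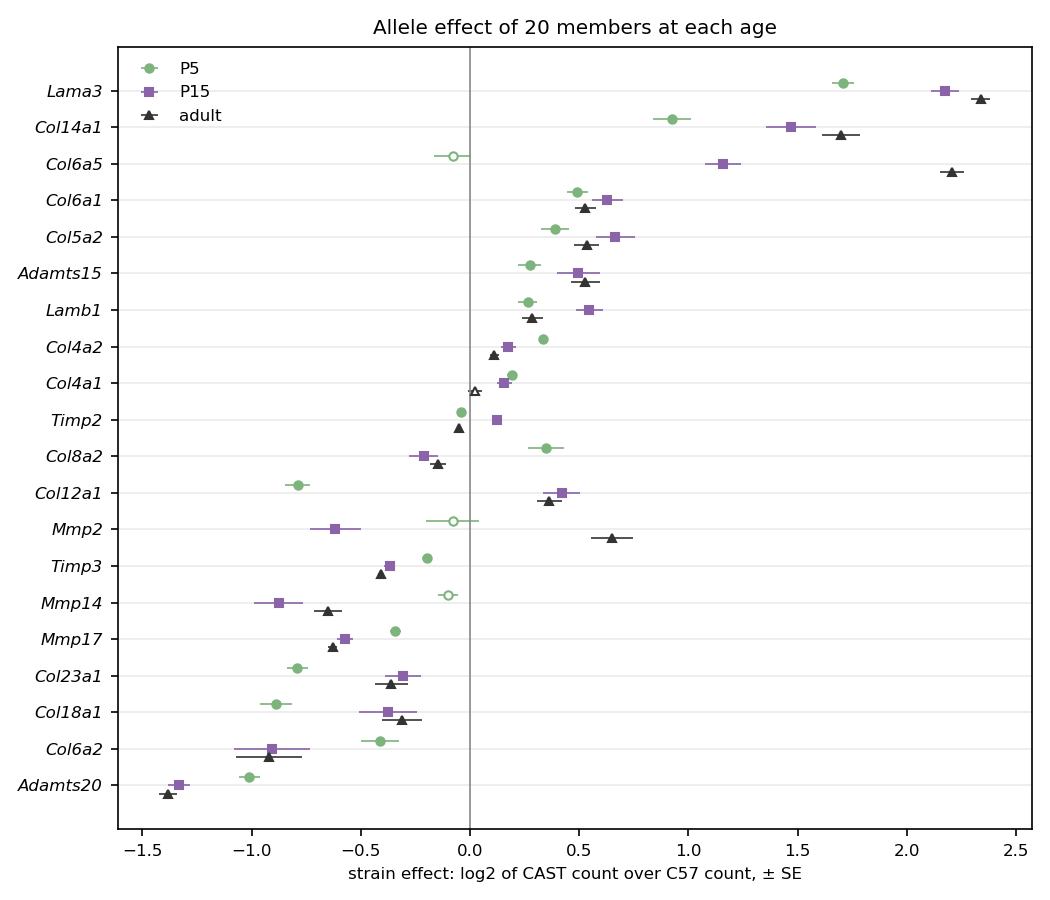
Strain effect (log2 of CAST over C57 counts, horizontal axis) of 20 members at P5 (circles), P15 (squares) and adulthood (triangles); bars are ± 1 SE, filled symbols passed an adjusted p of 0.05, and the vertical line is equal counts. Lama3 lies farthest to the CAST side and Adamts20 farthest to the C57 side, and Col6a5, Col12a1, Mmp2 and Mmp14 shift between ages.

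The strain effect itself changed with age for some members. Between P5 and P15 the CAST ratio rose for 12 of 72 members and fell for 10, where 8.81% of all genes rose and 9.33% fell. Between P15 and adulthood it rose for 5 and fell for 7, where 7.34% and 7.73% of all genes did. These contrasts share the P15 libraries.

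Among members with a mean count of at least 100, Col6a5 had the largest change of the allele ratio at both steps. CAST took 32.8%, 48.6% and 57.6% of its counts at P5 (lowest, median, highest), 57.6%, 68.2% and 81.7% at P15, and 77.7%, 83.1% and 85.3% in adults. The strain effect was -0.08 ± 0.08 at P5, which did not pass (adjusted p = 0.43), then 1.16 ± 0.08 and 2.21 ± 0.06. It rose by 1.24 ± 0.12 (adjusted p = 1.2e-13) and by 1.05 ± 0.11 (adjusted p = 9.9e-12). Over both alleles its medians were 16.0, 19.4 and 18.6 CPM. Its C57 copy averaged 8.43 ± 1.86, 6.07 ± 1.22 and 3.36 ± 0.782 CPM and its CAST copy 7.87 ± 0.886, 13.5 ± 2.43 and 15.7 ± 3.06 CPM, so the copies moved apart. Among members of fewer counts, the CAST ratio of Col1a1, a fibrillar chain, fell by 1.43 ± 0.26 from P5 to P15 (adjusted p = 1.1e-05). Col1a1 averaged only 25.64 counts at P5 and 17.93 at P15, and its strain effect at P15 alone was not tested. The change of Mmp2 at the second step is given with its shares after those of Mmp14.

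Col12a1, a FACIT collagen of tendon and fascia, changed sides. Its CAST share ran from 31.1% through 36.3% to 45% at P5, with all 14 libraries below 50%, from 49.1% through 56.2% to 70.7% at P15, with 13 of 14 above, and from 42.9% through 56.3% to 61.8% in adults. The strain effect went from -0.79 ± 0.06 to 0.42 ± 0.09 and 0.36 ± 0.06, a rise by 1.21 ± 0.10 at the first step (adjusted p = 4.3e-16). Both copies were lower at P15 than at P5, the C57 copy at 6.56 ± 1.09 CPM after 19.0 ± 1.94 and the CAST copy at 8.73 ± 1.71 after 11.1 ± 1.38. Col8a2 changed sides the other way, from 0.35 ± 0.08 at P5 to -0.21 ± 0.07 at P15 and -0.15 ± 0.04 in adults. Its fall by 0.56 ± 0.11 at the first step passed (adjusted p = 3.3e-05).

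The proteases Mmp14 and Mmp2 both changed. Mmp14 had CAST shares of 45.7% to 54.8% at P5 (median 47.5%), 13.9% to 43.9% at P15 (median 37.1%) and 30.5% to 49.1% in adults (median 38.2%). All libraries of the later ages lay below 50%. Its strain effect was -0.10 ± 0.05, -0.88 ± 0.11 and -0.65 ± 0.06, and the ratio fell by 0.78 ± 0.12 at the first step (adjusted p = 3.1e-07). Mmp2 was chosen after its values were seen. Its CAST share ran from 33.9% to 64.9% at P5 (median 46.2%), from 29.4% to 50.7% at P15 (median 37.4%) and from 48.7% to 71.4% in adults (median 61.1%), on medians of 43 to 52 counts per library. The strain effect was -0.08 ± 0.12, -0.62 ± 0.12 and 0.65 ± 0.10. The ratio fell by 0.54 ± 0.17 (adjusted p = 0.021) and then rose by 1.27 ± 0.17 (adjusted p = 7.4e-09), and 17 of 18 adult libraries were above 50% where 13 of 14 P15 libraries were below.

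Smaller changes passed in genes of high count. The CAST share of Timp2 was 49.3% of counts in the median P5 library, 52.2% at P15, with all 14 libraries above 50%, and 49.1% in adults, with 16 of 18 below. The ratio rose by 0.17 ± 0.02 (adjusted p = 8.2e-10) and fell by 0.17 ± 0.02 (adjusted p = 2.4e-11) over medians of 4575, 2043 and 9865 counts per library. The CAST effect of Col4a2 fell from 0.34 ± 0.02 to 0.18 ± 0.03 at the first step (by 0.16 ± 0.04, adjusted p = 0.00034) and that of Col4a1 from 0.16 ± 0.03 to 0.02 ± 0.03 at the second (by 0.13 ± 0.04, adjusted p = 0.033). Members called in both directions at different ages included Col12a1, Col8a2, Mmp2 and Timp2.

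**Figure D5:**
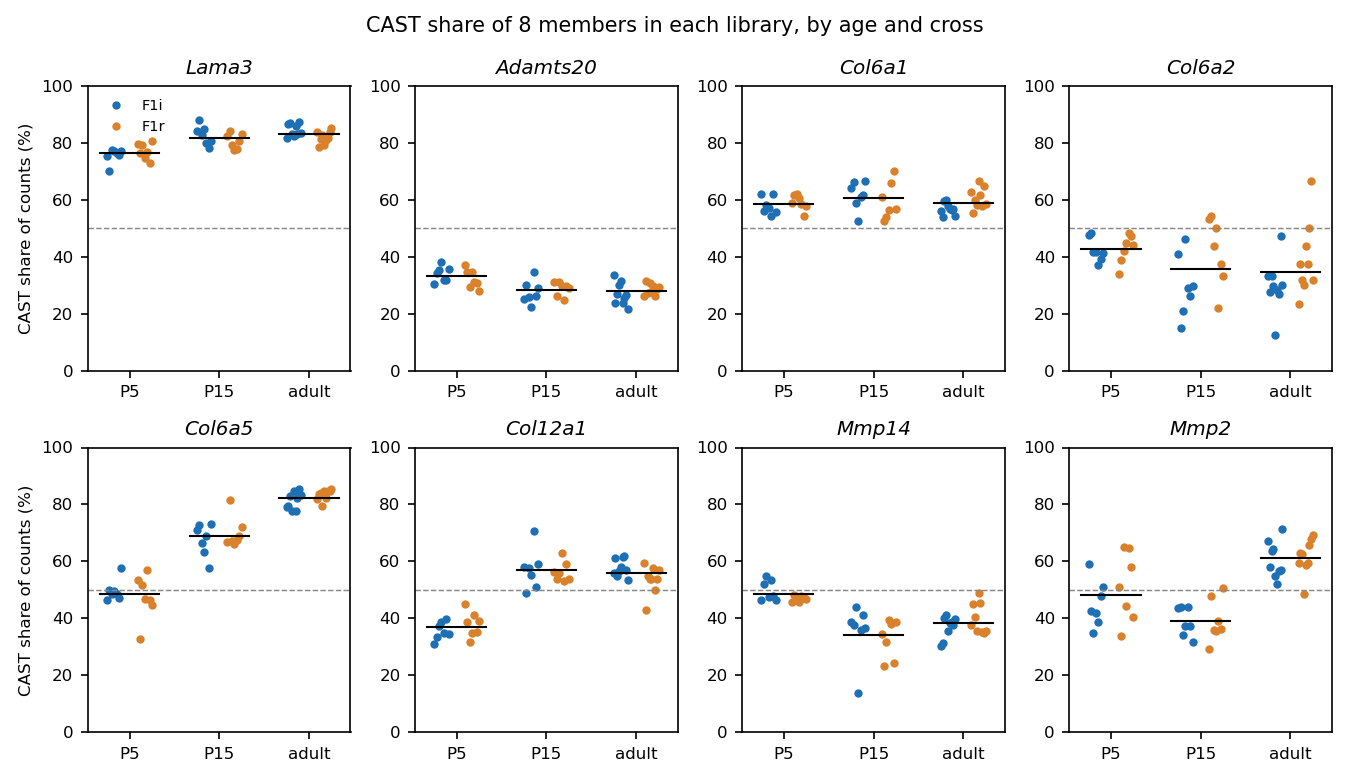
CAST share of the counts of 8 members in each library (vertical axis, 0 to 100%) at P5, P15 and adulthood; a point is a library, blue for F1i and orange for F1r, the solid line is the mean of an age and the dashed line is 50%. Lama3 and Col6a1 stay above 50% and Adamts20 below in every library, and the share of Col6a5 climbs from a median of 48.6% to 83.1%.

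Whether the direction of the cross changed the members was tested at each age on the sum of both alleles, as F1i over F1r. At P5, 2 of 70 members passed, where 1.17% of all genes did. Col25a1 ran from 204 through 212 to 233 CPM in F1i and from 218 through 243 to 253 in F1r. The ranges overlapped, and F1i was lower by a factor of 1.11 (log2 -0.16 ± 0.03, adjusted p = 0.0051). Col6a2 ran from 11.7 through 13.5 to 15.5 in F1i and from 8.96 through 11.1 to 11.4 in F1r, without overlap, and was higher in F1i by 0.34 ± 0.09 (adjusted p = 0.047). That call was lost without the low count filter, under upper quartile scaling and with the label number as a block, at adjusted p of 0.05 to 0.066. At P15 0 of 66 members passed, where 0.0467% of all genes did (edgeR), 1 member had an unadjusted p under 0.05, and DESeq2 also called 0. The share of all genes with such an unadjusted p was not counted.

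In adults 1 of 68 members passed, where 0.111% of all genes did. Adamts20 ran from 58.2 through 65.2 to 74.1 CPM in F1i and from 48.4 through 55.1 to 59.0 in F1r, an F1i excess by 0.26 ± 0.05 (adjusted p = 0.035, and 0.014 with the pairing by the second label number). The ranges overlapped between 58.2 and 59.0 CPM, and the same gene did not pass at P5 (0.04 ± 0.05) or P15 (-0.05 ± 0.08). With that pairing 77 of all genes passed where 15 did without it, and Adamts20 stayed the single member. The median member was 0.13 higher in adult F1i, beside 0.00 over all genes. An unadjusted p under 0.05 was found for 12 members, all higher in F1i. The share of all genes with such a p was not counted, so whether 12 is many is not known. Adult F1i libraries summed to 1320 to 1482 CPM and adult F1r libraries to 1231 to 1375 CPM over the members without Timp2, Timp3 and Col4a3bp, and these ranges overlapped. Over all members they summed to 2720 to 3031 and 2650 to 2842 CPM. The median endothelial marker was also higher in adult F1i, by 0.14, with 0 of 10 called, where mural markers had a median of 0.03 and fibroblast and meningeal markers -0.01. Endothelial markers summed to 204.4, 214.6 and 223 CPM in adult F1i (lowest, median, highest) and to 176.1, 194.6 and 224.3 CPM in adult F1r. The part of these cells in the members' shift was not tested.

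A parental effect, by which the copy from 1 parent is used more whatever its strain, shows as an opposite CAST ratio in the crosses. At P5 it passed for 1 of 68 members, where 2.71% of all genes were called. Col11a2 had CAST shares from 45.8% through 47.8% to 50% in F1i and from 48% through 53.3% to 56.5% in F1r, which overlapped, and an effect of -0.14 ± 0.04 (adjusted p = 0.026). This call did not pass with limma on the log2 ratio, with DESeq2 or with the label number as a block, and the effect was -0.11 ± 0.07 at P15 and within 0.07 (SE) of 0 in adults. At P15 0 of 59 members passed with edgeR (0.742% of all genes did) and in adults 0 of 64 (2.71% of all genes). An unadjusted p under 0.05 was found for 2 members at P15 and 7 in adults, where the share of all genes was not counted. With limma and DESeq2 0 members were called at both ages.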

How the data were processed

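The authors deposited 3 tables, 1 for each age, of unnormalised counts, in which every library has 1 column for each strain's allele. Per the labels' protocols, RNA was prepared with a Qiagen kit, libraries with TruSeq, and 50 bp single-end reads were sequenced. Novoalign and mm9 are named in the submitters' processing notes. Read assignment to alleles, multiply matching reads and strand are not given in the sources used here. Symbols and chromosomes came from GENCODE vM21 by identifier (14969 of 15499 genes named).

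Members and lists were chosen with earlier results of these data known. Age and cross were tested on both alleles summed with edgeR 4.0.16 (R 4.3.3): quasi-likelihood, TMM scaling, filterByExpr, and for age 1 model of 6 groups. The allele models used 1 column per library and allele, a term per library, the library total as size, and genes with a mean of 20 counts or more. For the parental effect the log2 ratio of F1r was subtracted from that of F1i and the result divided by 2. Benjamini-Hochberg adjustment covered all genes tested, and an adjusted p under 0.05 was called. The models were tested on simulated data. Alternatives were DESeq2 1.42.0, limma 3.58.1 on log2 ratios (0.5 added to each count), other scalings and filters, summed adult libraries and replicate blocks.

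Full values are given for up to 4 called members per role with the largest age change and a mean CPM of 5 or more, for members called for cross or parental effect, for the 15 largest strain effects called in 1 direction at 2 or more ages, for up to 10 largest changes of the strain effect with a mean of 100 counts or more, and for up to 3 genes per other list. Other members are named with their role, and 1 member that the rule takes is not reported here.

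Adult labels carry 2 numbers. Averages of the adult libraries that share the second number deviate together across crosses (correlations of 0.461 to 0.768 for 3 numbers, each highest with its own number). Single pairs of such libraries varied widely, with correlations from -0.409 to 0.792 and a mean of 0.249. Pairs across crosses with different second numbers had a mean of -0.12. The second number was taken to pair adult libraries, from the data and not from the labels. Nothing in the labels says what the numbers mark, or that replicates came from separate animals beyond their names, so p-values measure the spread between these libraries. No 2 libraries of a group agree within sampling noise (lowest chi-square per degree of freedom 1.275). Medians over pairs were 1.586 (F1i) and 1.624 (F1r) at P5, and 9.8 and 6.179 at P15. Adult pairs with different first numbers had medians of 8.668 and 4.86. Counts were fewest at P15, and P15 and adult libraries also differed by far more than sampling noise.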

Additional observations from a re-analysis of the deposited data

Results flagged for a closer look

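Dixon's test, which marks about 5 of 100 groups by chance, was run on 54 groups of libraries and marked 4. The summed CPM of all members reached 3031 in 1 adult F1i library, the highest of its group. Col11a2 had a CAST share of 59.5% in 1 P15 F1i library and a level of 34.4 CPM in 1 P15 F1r library, each the highest of its group. Col25a1 had a CAST share of 47.3% in 1 P5 F1r library, the lowest of its group.

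The strain effect differed between ages by a test of the difference for these members of high count. From P5 to P15 the log2 CAST ratio rose by 1.24 in Col6a5, 1.21 in Col12a1, 0.51 in Col18a1, 0.48 in Col23a1, 0.47 in Lama3, 0.45 in Col6a3 and 0.28 in Lamb1. It changed by -0.78 in Mmp14, -0.56 in Col8a2 and -0.32 in Adamts20. From P15 to adulthood it rose by 1.05 in Col6a5 and 0.10 in Col4a3bp, and changed by -0.45 in Adamtsl4, -0.26 in Lamb1, -0.17 in Timp2 and -0.13 in Col4a1. Lamb1 thus moved up and then down, from a strain effect of 0.26 ± 0.04 through 0.55 ± 0.06 to 0.29 ± 0.05, while Col6a5 moved up at both steps. In Col18a1 and Col23a1 the C57 excess of P5 (-0.89 ± 0.07 and -0.79 ± 0.05) was smaller later, at -0.31 ± 0.09 and -0.36 ± 0.07 in adults.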

How the results depend on the processing

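Of 162 recomputed counts of calls 144 stayed within 1.5 times the reported one, and of 588 recomputed values of single members 573 kept their direction and side of the threshold, 14 no longer passed and 1 newly passed. No called member reversed in any alternative. For cross at P5 the single member higher in F1i became 0 with DESeq2 (which gave Col6a2 no adjusted p), without the filter, with upper quartile scaling and with the replicate block. For cross in adults all genes called went from 15 to 53 with DESeq2, to 77 with the replicate block by the second number, and to 306, with 5 members higher in F1i, when libraries were summed over the first number. For the parental effect at P5 the single member became 0 and all genes called went from 327 to 109 with limma, 120 with DESeq2 and 175 with the replicate block. In adults all genes called for it went from 344 to 90, 138 and 117 in the same order. At P15 the replicate block called 1 member where 0 were called.

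At P5 and P15 libraries share only a number: their deviations correlated from -0.096 to 0.055 across crosses at P5 and from -0.348 to 0.694 at P15, and from -0.136 to 0.13 between P5 and P15, and at most 1 of 7 numbers was highest with its own. With the replicate block 64 of the 66 members called from P5 to P15 were called again. The pairing by the second adult number changed no other call of a member. Depth limits members of few counts, such as Adamtsl5 at P5 and Col6a2 at P15.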

Other observations

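The P15 libraries ran over a wider range of summed matrix gene levels than those of the other ages, as given in the report. Over the 14 P15 libraries the summed CPM of the members without Timp2, Timp3 and Col4a3bp rose with the summed CPM of 7 astrocyte markers, which hold no member. Pearson's r was 0.76 (permutation p = 0.0023, adjusted p = 0.014 over 6 relations) and Spearman's rho 0.77 (permutation p = 0.002, adjusted p = 0.012). Without the 2 libraries farthest from the median of the astrocyte sum r was 0.73, and it was 0.80 within F1i and 0.80 within F1r. Over the sum of all 72 members r was 0.87 (permutation p = 0.00011, adjusted p = 0.00066 over 6 relations of that sum), 0.84 without the 2 farthest libraries, 0.91 within F1i and 0.88 within F1r, and rho was 0.92 (permutation p = 1e-05, the smallest the permutations can give, adjusted p = 6e-05). The other 5 relations of the first sum did not pass: Pearson's r was -0.45 for endothelial markers (permutation p = 0.1, adjusted p = 0.31), -0.24 for mural markers, 0.28 for fibroblast and meningeal markers, -0.23 for myelin markers and 0.12 for library size, and Spearman's rho ran from -0.39 to 0.19. Without the 2 libraries farthest from the median of each measure these r were -0.63 for endothelial, -0.51 for mural, -0.49 for fibroblast and meningeal (where the sign turned) and -0.58 for myelin markers, and 0.26 for library size, so these values depend on 2 libraries each. Over all members the endothelial r was -0.59 (permutation p = 0.026, adjusted p = 0.079), and -0.74 without the 2 farthest libraries. The relation with the astrocyte sum was looked for after the spread at P15 had been seen, and what sets the spread was not tested. Sums of other genes were not set against the astrocyte sum, and the remaining marker lists were not tried. Whether the relation is particular to matrix genes or to astrocyte markers is therefore not known.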
